A study of Cricetiscus sungorus with 216 samples.

Results

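The pituitary gland of male Djungarian hamsters (Phodopus sungorus, the Siberian hamster of the sample labels) was compared between long photoperiod (LP) and the first weeks of short photoperiod (SP). All pituitary libraries titled 4, 8 and 12 weeks SP (18 libraries, 6 hamsters per week) were taken against all 6 pituitary libraries titled LD, which are called LP here, giving 24 of the 216 libraries of the series. All hamsters were adult males of 1 laboratory colony, with no genotype or drug treatment. The 6 LP hamsters stayed on long days throughout, the 18 SP hamsters were moved from LP to short days, and all were killed in the hours after lights on. Each library is 1 hamster, with RNA of the whole pituitary dissection read on the nanopore platform. The sources used here do not state an order of dissection or sequencing, so whether a run order differed between the groups cannot be checked. The libraries are shallow, and a gene is said to be read where it has at least 1 count. Of 22482 gene symbols in the table, 18880 were read in at least 1 of the 24 libraries and 4088 in at least 12, and these 4088 were tested.

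The pituitary gland holds separate endocrine cell types, each named for its hormone. Lactotrophs make prolactin, somatotrophs make growth hormone, corticotrophs and melanotrophs cleave peptides from pro-opiomelanocortin, gonadotrophs make luteinizing and follicle-stimulating hormone, and thyrotrophs make thyroid-stimulating hormone. Night length reaches the gland through melatonin, which acts on the pars tuberalis, a thin layer around the pituitary stalk, and prolactin is the pituitary hormone best known to follow day length in seasonal mammals.

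The libraries carried the mark of their tissue. Prl, Gh, Pomc, Lhb and Cga were read in all 24 libraries, whereas Tshb was read in 16 and Fshb in 11. Of the markers of brain neurons and glia 0 of 14 reached 12 libraries, and of skeletal muscle 0 of 12. Of endothelium, a part of the gland, it was 0 of 12, and of neutrophils 0 of 6. The table lists only 9 of these muscle and 3 of these neutrophil markers. Of all 22482 symbols 4088 reached 12 libraries, and of pituitary receptors 5 of 33, so these counts do not show absence. Of the brain markers 9 were read in at least 1 library, and their sum reached 351 CPM at 12 weeks SP. Library totals ran from 40522 to 230636 counts in LP (median 75850.5) and from 29223 to 183905 in SP (median 84805.5), which did not separate the photoperiods (exact permutation test, 2-sided, p = 0.952). The leucyl-tRNA synthetase gene Lars2 took 10.4% to 29.5% of the counts in LP and 13.7% to 26.98% in SP. These counts are sums over isoforms, and where several isoforms share the same reads each is credited with them, so that summed counts were 1.88 times those of the highest isoforms over the table, and more for genes with many isoforms.

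Prl, the gene of prolactin, fell in SP at every week, and it was the 1 gene of 4088 that passed an FDR of 0.1 in any comparison (0.0245% of the genes tested, in each of the comparisons of early SP, 4, 8 and 12 weeks SP with LP and among the SP weeks). In LP it ranged from 8177 to 17524.5 CPM (counts scaled to the library total, with TMM factors) with a median of 14151. After 4 weeks SP it ranged from 1053 to 3415 CPM with a median of 2396, after 8 weeks from 303 to 723 CPM with a median of 429, and after 12 weeks from 402 to 714 CPM with a median of 573. All 18 SP libraries lay below all 6 LP libraries, the highest of them a 4-week library. No other gene of 4088 had every SP library below every LP library (0.0245%), and 0 genes had every SP library above.

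**Figure D1:**
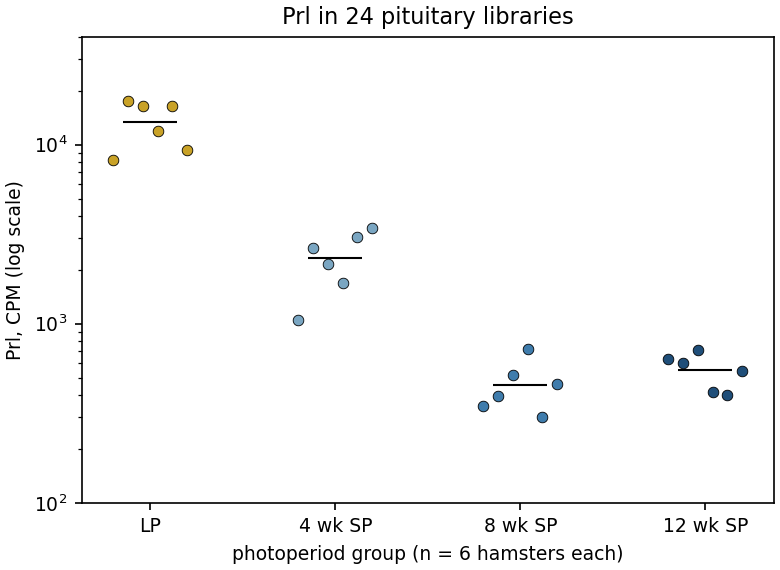
Prl in each of the 24 pituitary libraries, in CPM on a log axis, by photoperiod group. Points are single hamsters (n = 6 per group) and bars are group means, which were 13310 CPM in LP, 2336 at 4 weeks SP, 458 at 8 weeks and 552 at 12 weeks, and no SP point reaches the lowest LP point at 8177 CPM.

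Mean Prl was 13310 ± 4022 CPM in LP (SD, n = 6) and 1115 ± 1015 CPM over the SP weeks (SD, n = 18). The fitted log2 fold change of SP against LP was −3.98 (SE 0.25; 95% interval −4.49 to −3.48), which passed with edgeR's test (adjusted p = 4.95e-12). The exact permutation test of mean log2 CPM gave p = 7.43e-06 (2-sided), the smallest that the 134596 splits of 18 against 6 allow. Mean Prl was 5.70-fold below LP at 4 weeks SP (log2 fold change −2.51, SE 0.30, edgeR adjusted p = 0.000126). It was 29.1-fold below at 8 weeks (−4.86, SE 0.30, edgeR adjusted p = 1.76e-09) and 24.1-fold below at 12 weeks (−4.59, SE 0.30, edgeR adjusted p = 4.49e-09). At each week the exact permutation test against LP gave 0.00216, the smallest p for 6 against 6. In a whole gland, fewer lactotrophs and less Prl per lactotroph cannot be told apart.

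Prl fell further between 4 and 8 weeks SP, and it differed among the SP weeks themselves (edgeR adjusted p = 9.30e-05 over all genes). This contrast leaves out the LP mean, although the LP libraries share in the scaling and the estimate of the spread. From 4 to 8 weeks Prl fell by a further 2.35 on the log2 scale (SE 0.30, edgeR adjusted p = 0.000414, exact permutation p = 0.00216). The groups did not overlap, since the lowest 4-week library stood at 1053 CPM and the highest 8-week library at 723 CPM. Between 8 and 12 weeks the difference was 0.27 (SE 0.31, edgeR adjusted p = 0.998, exact permutation p = 0.210), and these ranges overlapped.

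The fall in Prl was also present inside each library, without any scaling between libraries. The 2 annotated Prl isoforms had nearly the same counts in every library, and the higher of them had 211 to 1665 counts in LP and 8 to 143 in SP. The ratio of Prl to Gh counts was 0.146 to 0.525 in LP and 0.00441 to 0.0776 in SP, with no overlap. Against Pomc the ratio was 0.775 to 2.06 in LP and 0.0207 to 0.511 in SP. Against Lhb it was 5.15 to 7.52 in LP and 0.212 to 3.58 in SP, and against Cga 4.61 to 10.9 and 0.169 to 2.51. All 4 ratios separated the photoperiods completely (exact permutation test of the log2 ratio, p = 7.43e-06 each). Prl has 2 annotated isoforms, Pomc 5 and Lhb 4, and summed counts can credit a read to each. The size of a ratio therefore does not give the relative abundance of the 2 genes. The mean log2 ratio differed between SP and LP by −4.36 against Gh, −3.93 against Pomc, −3.73 against Cga and −3.34 against Lhb, so that the fall was smaller against Lhb than on the CPM scale.

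Gh, the gene of growth hormone, did not pass, and its fitted value was higher in SP. Its lowest, median and highest LP libraries had 28345, 49309 and 55906 CPM. At 4 weeks SP they had 31832.5, 43871 and 60677 CPM, at 8 weeks 44632, 62091 and 74125, and at 12 weeks 45589, 71531 and 91107. The groups overlapped, with 10 of 18 SP libraries above all LP libraries. Over the SP weeks the log2 fold change was 0.35 (SE 0.20; 95% interval −0.06 to 0.76; edgeR adjusted p = 1.00; exact permutation p = 0.0901). Against LP it was −0.04 at 4 weeks, 0.44 at 8 weeks and 0.64 at 12 weeks (exact permutation p = 0.933, 0.0411 and 0.0390). The edgeR adjusted p of these weeks were 0.999, 0.998 and 0.999. From 4 to 12 weeks SP the difference was 0.67 (SE 0.24), with an exact permutation p of 0.0173 (0.0292 adjusted over the 3 pairs of weeks) and an edgeR adjusted p of 0.998 over all genes. From 4 to 8 weeks it was 0.47 (SE 0.24, exact permutation p = 0.0195, adjusted 0.0292), and it did not pass with edgeR either. Somatotrophs and lactotrophs both depend on the transcription factor Pou1f1, which had a log2 fold change of −0.09 (edgeR adjusted p = 1.00) on reads in 16 libraries.

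Lhb, the beta subunit of luteinizing hormone, had the smallest unadjusted p of the hormone genes after Prl. Its lowest, median and highest LP libraries had 1246, 2339 and 2884 CPM. Those of 4 weeks SP had 954, 1283 and 2353 CPM, at 8 weeks 820, 1108 and 1226, and at 12 weeks 1033, 1451 and 2838. All 6 libraries at 8 weeks lay just below all LP libraries, a pattern shared by 5 of 4088 genes (0.122%: Clu, Ergic3, Gm8225, Lhb and Prl). The other weeks overlapped LP. Over the SP weeks the log2 fold change was −0.65 (SE 0.25; 95% interval −1.16 to −0.14) with an edgeR adjusted p of 1.00. Its unadjusted p was under 0.05, as it was for 2.64% of all genes (1.27% lower in SP and 1.37% higher). The exact permutation test of this single gene gave p = 0.00821. At 8 weeks the log2 fold change was −1.01 (edgeR adjusted p = 0.998).

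**Figure D2:**
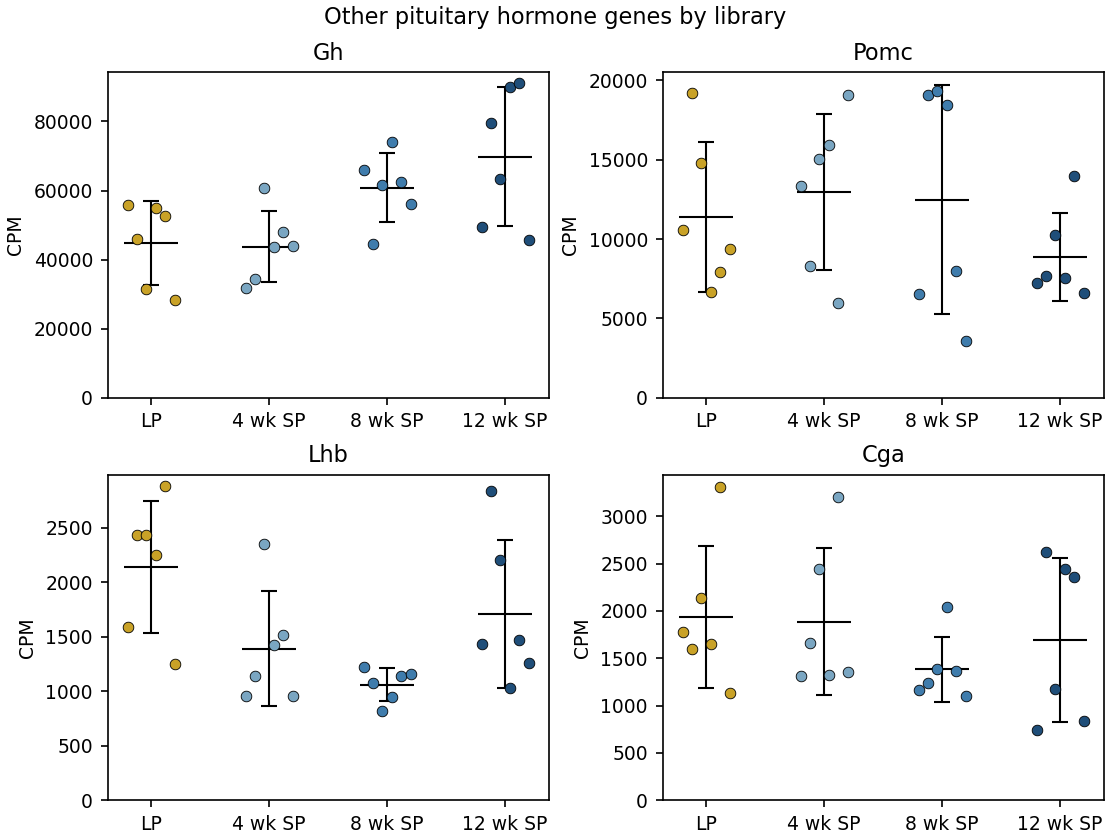
CPM of Gh, Pomc, Lhb and Cga in each library, by photoperiod group (n = 6 hamsters each). Bars are means with SD, each axis starts at 0, and in every panel the SP groups overlap LP except for Lhb at 8 weeks SP, where the highest library (1226 CPM) is just below the lowest LP library (1246 CPM).

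Cga encodes the alpha subunit that luteinizing, follicle-stimulating and thyroid-stimulating hormone share. It had a mean of 1933 ± 748 CPM in LP (SD, n = 6) and 1653 ± 691 CPM in SP (SD, n = 18), with a log2 fold change of −0.24 (95% interval −0.83 to 0.36; edgeR adjusted p = 1.00). Pomc had means of 11412 ± 4729 CPM in LP and 11436 ± 5308 CPM in SP (SD), with a log2 fold change of −0.02 (95% interval −0.66 to 0.63; edgeR adjusted p = 1.00). Its sign depends on the scaling, and a 2-fold change in either direction lies outside the interval. Tshb, the beta subunit of thyroid-stimulating hormone that the pars tuberalis also makes under long days, had between 0 and 8 counts of its highest isoform in every library, and was read in 3 of 6 LP and 13 of 18 SP libraries. Its log2 fold change of 0.29, below 0 with DESeq2, had a 95% interval from −1.70 to 2.28, so that neither a rise nor a fall was detectable at this depth. Fshb, the beta subunit of follicle-stimulating hormone, had at most 3 counts in a library and was not tested.

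Beside Prl, the genes with the smallest p in each direction were mostly genes of a few reads, and none of these 19 passed in the test used here. The gene with the smallest p among those with higher values in SP was Fam13b (log2 fold change 6.32, SE 1.94, edgeR adjusted p = 0.912), which has 23 isoforms. Its highest isoform had 0 counts in all 6 LP libraries and between 1 and 8 in 12 of 18 SP libraries. Its sum over the LP libraries was 1 count, so that the fitted fold change has no firm size. Kbtbd3 was listed at 0 in all 6 LP libraries, and its highest isoform reached 1 to 3 counts in 11 of 18 SP libraries. Taking each count as 1 read, the LP libraries together would allow up to 5.43 CPM (3 counts of 552434). Kbtbd3 has 7 isoforms and summed counts can credit a read to each, so its true limit is higher and was not computed. It entered the test only through the SP libraries, and Fam13b, Ahi1 and Gmds, each read in 1 LP library, would also have entered through these alone. A gene read only in the 6 LP libraries could not enter. Pkd2l2, Ahi1, Gmds, Cadps, Ndufs1, H2-Q1, Arid1b and n-R5s33 completed the 10, with log2 fold changes between 1.68 and 4.74, edgeR adjusted p of 1.00 each, and sums of 1 to 15 counts over the LP libraries. Cadps, a priming factor of dense-core vesicles, has 50 isoforms, and its highest isoform had at most 4 counts in a library. Ndufs1, a core subunit of respiratory complex I, had at most 3.

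On the lower side, Agfg1 had the second smallest p of all genes (log2 fold change −4.27, SE 1.10, edgeR adjusted p = 0.276). Its highest isoform was read in 2 of 6 LP libraries, with at most 4 counts, and in 4 of 18 SP libraries, with at most 2. The photoperiods overlapped in every gene named here other than Prl. Surf4, an endoplasmic reticulum cargo receptor, rested on more even counts: its highest isoform was read in 5 of 6 LP libraries with up to 9 counts and in 11 of 18 SP libraries with up to 4 (log2 fold change −1.78, SE 0.62, edgeR adjusted p = 1.00). Ccnd1, the cell cycle regulator cyclin D1, had 2 counts of its highest isoform at most in a library and a log2 fold change of −1.85 (SE 0.69, edgeR adjusted p = 1.00). Gatad2a, Kmt5b, Chd9, 4932438A13Rik, Msi1 and Tm9sf1 made up the rest, with log2 fold changes of −2.93, −3.14, −2.59, −2.62, −2.30 and −2.43. For 4932438A13Rik the value was −0.85 at 4 weeks, −0.77 at 8 weeks and −6.25 at 12 weeks, where its highest isoform had 1 count at most. Pkd2l2 had 2.49, 2.58 and 4.34 at the same weeks, and its highest isoform had 1 to 5 counts in all 6 libraries at 12 weeks and at most 1 in LP. At 12 weeks both had an edgeR adjusted p of 0.380, and DESeq2 called both and Fam13b there.

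**Figure D3:**
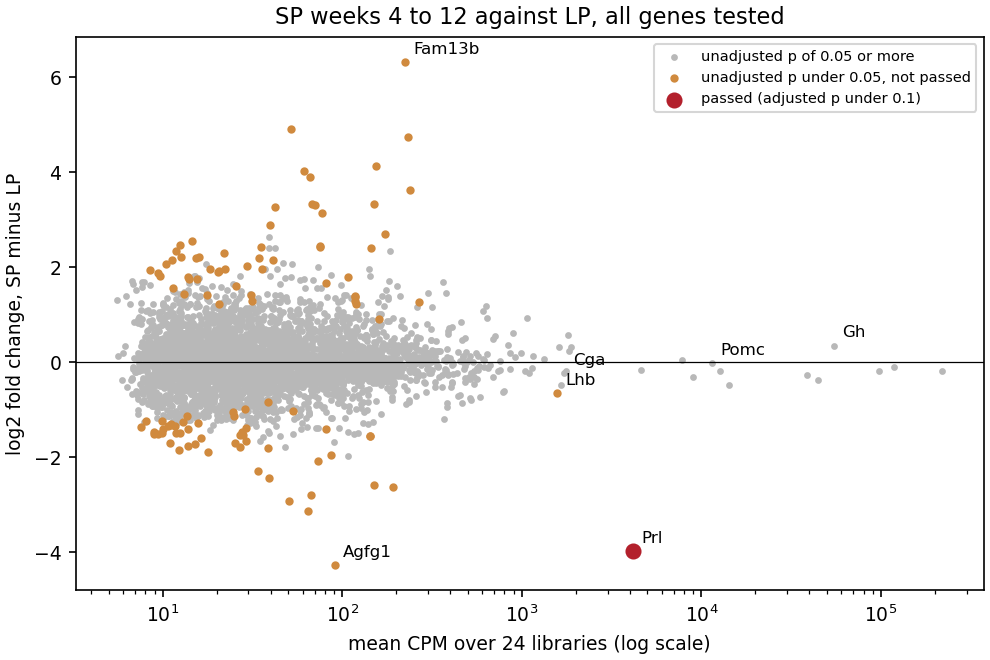
Each point is 1 of the 4088 genes tested, with its mean CPM over the 24 libraries on a log axis and its log2 fold change of the SP weeks against LP. Prl, at −3.98, is the 1 gene that passed, while the other large changes belong to genes such as Fam13b and Agfg1 that rest on few reads.

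In all, 108 genes (2.64%) had an unadjusted p under 0.05 over the SP weeks, 56 higher and 52 lower in SP. The second smallest adjusted p was 0.276. With DESeq2 on the same genes Fam13b passed beside Prl, and with the highest isoform of each gene in place of the sum 11 genes passed. Of these 11, Rn7s1, Rn7s2, n-R5s33, n-R5s106, n-R5s118, n-R5s130 and Gm24312 are copies of small structural RNAs or carry the counts of one, and their reads cannot be assigned to 1 copy. Rn7s1 and Rn7s2 were lower in SP there (log2 fold change −1.64, edgeR adjusted p = 3.39e-07 each) and passed at 4, 8 and 12 weeks too. Rn7sk was also lower (−0.85, edgeR adjusted p = 0.0538), and the 5S copies and Gm24312 were higher. Their summed counts did not pass. The others were Prl, Fam13b and Xkrx. For 494 of the 4088 genes (12.1%), the 95% interval lay within a 2-fold change in either direction, and for 2495 (61%) within a 4-fold change.

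The ribosomal protein genes were the group measured best. Of 78 cytosolic ribosomal protein genes tested, 62 had 95% intervals within a 2-fold change, 0 passed and 0 had an unadjusted p under 0.05, and their median log2 fold change was −0.09 against −0.01 over all genes. Among those with the smallest p were Rps15a (−0.86) and Rpl4 (−0.42). Of 69 nuclear-encoded genes of oxidative phosphorylation, 0 passed and 2 had an unadjusted p under 0.05, both higher in SP (1.37% over all genes): Ndufs1 and Ndufb10 (log2 fold change 1.22, edgeR adjusted p = 1.00). Their median was −0.01. Ndufa12 followed with 1.42. With DESeq2, no listed gene other than Prl passed over the SP weeks either.

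The machinery that takes hormones through the secretory pathway was represented more fully than the factors that control it. Of 39 tested genes of the translocon and of transport from the endoplasmic reticulum to the Golgi, 0 passed, and 4 had an unadjusted p under 0.05: Surf4, Srp14 and Sec11a lower, and Srp9 higher, in SP (1.27% of all genes were lower and 1.37% higher at that p). Srp14 and Srp9 form a heterodimer of the signal recognition particle, and their log2 fold changes were −1.60 and 1.41. Srp14 had 1 to 7 counts in all 6 LP libraries and 0 to 3 in SP, where 10 of 18 libraries had any. The list had a median of 0.00. Of 27 tested genes of protein folding and the unfolded protein response, 0 passed and 0 had p under 0.05, with a median of −0.28. Derl1 (−1.01), Sdf2l1 (−1.04) and Txndc5 (−1.03) had the smallest p.

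Of 14 tested granins and prohormone-processing genes, 0 passed, with a median of 0.03. Ptprn, a dense-core vesicle protein, had 0.88, Qpct 1.25 and the granin Scg3 −0.56. Of 12 tested genes of regulated exocytosis, 0 passed, 3 had an unadjusted p under 0.05 (2.64% over all genes), and the median was −0.15 (−0.01 over all genes). Vamp2, the vesicle SNARE, ranged from 39.2 to 79.2 CPM in LP (median 59.0) and from 9.20 to 72.7 CPM in SP (median 30.2), and 13 of 18 SP libraries lay below all LP libraries (log2 fold change −0.83, edgeR adjusted p = 1.00, exact permutation p = 0.00337). Snap25, its partner on the plasma membrane, had higher values in SP, from 36.7 to 666 CPM (median 302) against 0 to 280 CPM in LP (median 124), and 10 of 18 SP libraries lay above all LP libraries (log2 fold change 1.26, edgeR adjusted p = 1.00, exact permutation p = 0.00999). The third was Cadps. Vamp2 rested on 28 counts over the LP libraries and 51 over the SP libraries. The highest isoform of Snap25 had at most 12 counts in a library. Since these genes were named for the smallest p of the list, their permutation p and their separation from LP are no further test.

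Genes of transcriptional control and signal reception were thinly read, so these lists say little at this depth. Of 20 lineage factors 7 were tested, and of 33 pituitary receptors 5. Neither list had a member with an unadjusted p under 0.05, and their medians were −0.56 and −0.72. Six3 (−0.99) and Insm1 (0.86) were among the factors with the smallest p. Drd2, the dopamine receptor that restrains lactotrophs, was read in 3 of 6 LP and 9 of 18 SP libraries, with 5 counts of its highest isoform at most (log2 fold change −1.08; 95% interval −2.68 to 0.51; edgeR adjusted p = 1.00). Esr1, the estrogen receptor, had −1.08 and the growth hormone-releasing hormone receptor Ghrhr −0.72. At 4, 8 and 12 weeks SP the values of Esr1 were −3.28, 0.04 and −0.01, and those of Drd2 0.14, −1.06 and −2.33. Neither gene passed at a week or among the weeks. From the pathway of thyroid hormone handling 1 of 14 genes was tested, the receptor Thra, with 0.07, and its sign depends on how isoforms are counted.

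Of 8 tested genes linked to photoperiod in the pars tuberalis and 9 of the circadian clock, 0 passed and 0 had an unadjusted p under 0.05, with medians of −0.07 and −0.04. Hlf (−1.18), Per1 (−0.84) and Clock (1.14) had the smallest p of the clock list. Of 5 tested immediate early genes 0 passed, and the antiproliferative gene Btg2 (1.75, edgeR adjusted p = 1.00) had an unadjusted p under 0.05. The list's median was 0.80, with Junb at 0.80 and Klf6 at −0.77. Cholesterol and fatty acid synthesis (6 tested, median −0.01), glucocorticoid responsive genes (2 tested, median −0.74), binding proteins of the thyroid and growth axis (3 tested, median 0.02) and proliferation (3 tested, median 0.72) each had 0 genes that passed and 0 with p under 0.05. Among their named members were Srebf2 (−1.13), Insig1 (0.79), Elovl5 (0.18), Nfkbia (−0.65), Igfbp5 (−0.90), Dlk1 (0.23), Igfbp7 (0.02), Stmn1 (1.17), H2az1 (0.72) and Tubb5 (−0.11), of which Elovl5 and Igfbp7 were below 0 with the highest isoform. The delta-like protein gene Dlk1, known from somatotrophs, was read in all 24 libraries, at 1599 ± 390 CPM in LP (SD, n = 6) and 1909 ± 634 CPM in SP (SD, n = 18).

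**Figure D4:**
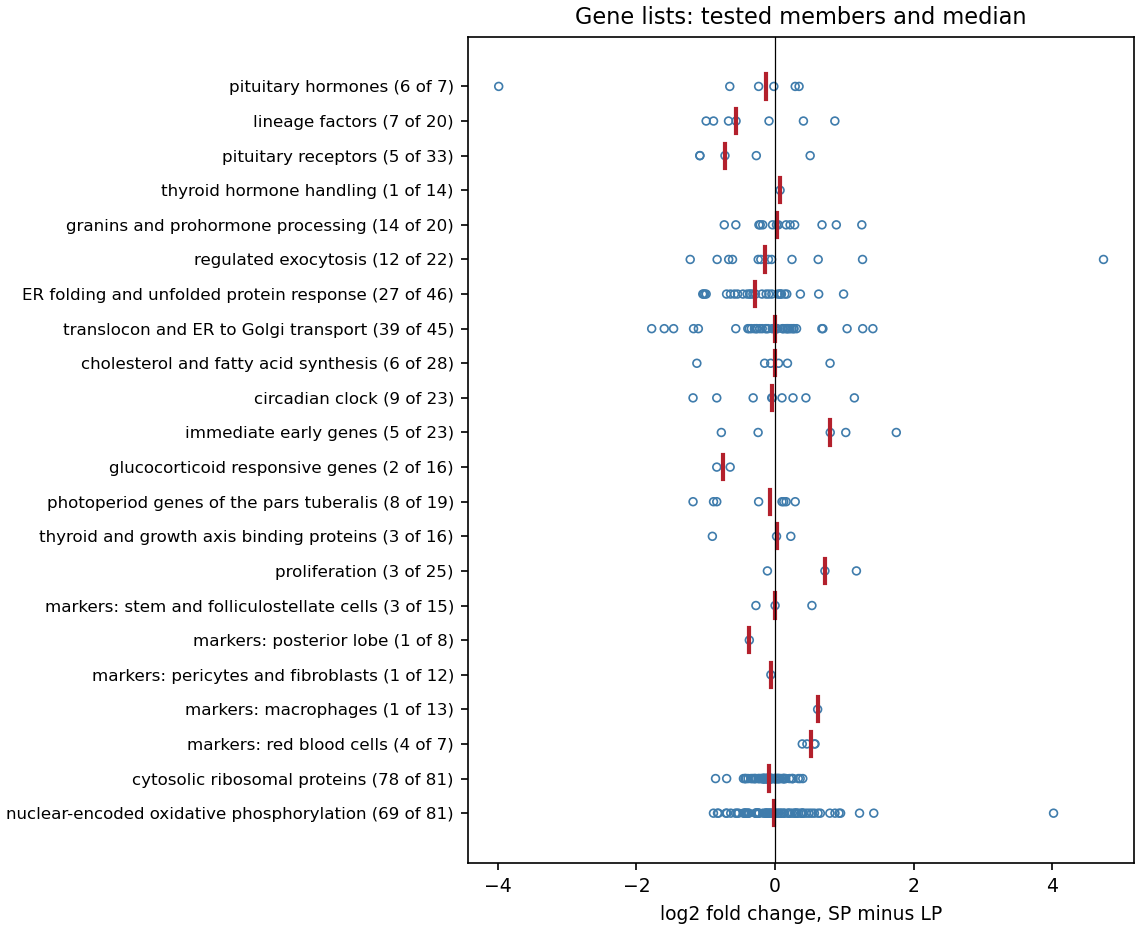
Log2 fold change of the SP weeks against LP for the tested members of each gene list (open circles), with the list's median as a red bar and the number tested of the number listed beside its name. Prl at −3.98 is the 1 member that passed, and lists with few tested members have medians that rest on 1 to 7 genes.

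Markers of other cells of the gland did not pass in any list, and some defining ones had 0 counts in all 24 libraries (Kdr and Flt1 of endothelium, S100a9 of neutrophils). Stem and folliculostellate cells had 3 markers tested (Cst3 −0.28, S100a1 0.53, Cyp2f2 0.00), the posterior lobe 1 (Vim −0.37), pericytes and fibroblasts 1 (Mgp −0.06) and macrophages 1 (Cd74 0.61), all with 0 unadjusted p under 0.05, and the signs of Cyp2f2 and Mgp changed with isoform counting or scaling. Summed over the list, folliculostellate markers stood at 267 to 392 CPM in LP and 114 to 414 CPM in SP. The 4 tested globin genes, which mark red blood cells and share near-identical copies, had log2 fold changes of 0.39 to 0.58 over the SP weeks, and their sum was 195.9 to 523 CPM in LP and 157 to 1476 CPM in SP. At 4 weeks SP the sum was 331 to 1476 CPM. Hbb-bt had a log2 fold change of 1.13 at 4 weeks (edgeR adjusted p = 0.860) and passed there with the highest isoform in place of the sum, as did Hbb-bs and Hba-a2, but none of them passed once the 5S RNA copies described next entered as 1 gene. The part of blood in the 4-week values was not tested.

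At single weeks, the number of genes with an unadjusted p under 0.05 was 179 at 4 weeks SP (4.38%; 2.67% higher and 1.71% lower in SP), 117 at 8 weeks (2.86%; 1.64% and 1.22%) and 112 at 12 weeks (2.74%; 1.76% and 0.978%), and 127 genes (3.11%) among the SP weeks. The 3 comparisons with LP share the 6 LP libraries. Part of the count at 4 weeks came from copies of 1 RNA. Of the tested genes, 58 share the reads of 5S ribosomal RNA, the small RNA of the large ribosomal subunit: 50 by their symbol (n-R5s and Rn5s) and 8 whose counts lay within 1 of such a gene in at least 22 of 24 libraries, a group formed after its values were seen. At 4 weeks 49 of these 58 had an unadjusted p under 0.05, all higher, and without them 130 genes remained (3.23% of 4030). Over the SP weeks it was 6 of 58, at 8 weeks 5 and at 12 weeks 0.

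**Figure D5:**
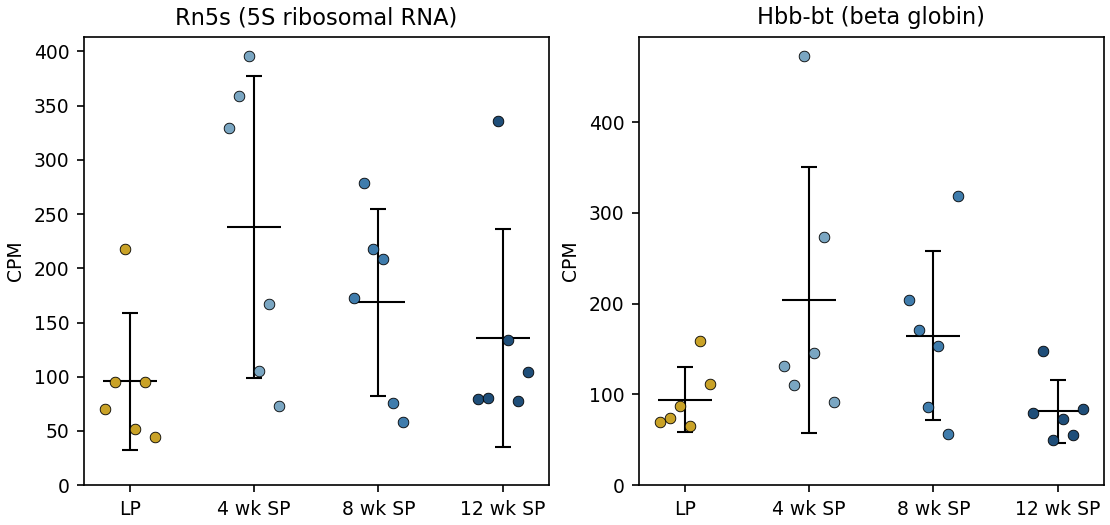
CPM of Rn5s, a 5S ribosomal RNA gene, and of the globin gene Hbb-bt in each library, by photoperiod group (n = 6 hamsters each, bars are means with SD, axes start at 0). At 4 weeks SP, 3 of 6 libraries have Rn5s above the highest LP library at 218 CPM, and the other 3 overlap LP.

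Rn5s itself ranged from 44.5 to 218 CPM in LP with a median of 82.4. At 4 weeks SP its range was 73.4 to 395 CPM (median 248), at 8 weeks 57.8 to 279 CPM (median 191), and at 12 weeks 78.1 to 336 CPM (median 92.4). All 3 SP ranges overlapped LP. Its log2 fold change was 1.33 at 4 weeks (edgeR adjusted p = 0.860). DESeq2 called 40 genes at 4 weeks, of which 36 were among the 58 copies, and called 1, Prl, when the copies entered as 1 gene. With the highest isoform 54 genes passed there, of which 47 were copies, and 4 passed with the copies as 1 gene: Prl, Rn7s1, Rn7s2 and the 5S RNA (log2 fold change 1.38, edgeR adjusted p = 0.0474). Rn7s1 and Rn7s2, copies of the RNA of the signal recognition particle, had the same counts in every library, from 1 to 120 in LP and from 1 to 29 in SP, and their range of 21.8 to 632 CPM in LP overlapped that of every SP week.

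Few genes separated a single week from LP without overlap. At 4 weeks SP 3 genes had all 6 libraries below LP (0.0734%: Anp32b, Prl and Tfg) and 1 had all above (Ccdc85c, 0.0245%). At 8 weeks it was the 5 named with Lhb below and Rpl10-ps2 above (0.0245%). At 12 weeks Herpud1 and Prl lay below (0.0489%) and 6 genes above (0.147%: Atp6v1f, Ccdc12, Gm6079, Gm8518, Gm9349 and Gmds). Prl was the 1 gene among them that passed.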

How the data were processed

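RNA of the pituitary gland was sequenced on the nanopore platform. The authors aligned reads to the mouse genome (GRCm39) with Minimap2, estimated isoform levels with Salmon and removed low transcripts, and deposited expected counts (estimated counts per isoform, without normalization) for 79349 isoforms, of which 97.4% of the values above 0 were whole (to within 1e-06). The study's methods name a direct cDNA kit for the pituitary gland and the labels a PCR-cDNA kit. Hamster reads on mouse genes can lower or misplace a gene's counts alike in all groups. The table lists 0 mitochondrially encoded genes.

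Counts were summed per gene symbol and rounded. Genes with at least 1 count in at least 12 of 24 libraries entered edgeR 4.0.16 (R 4.3.3), whose quasi-likelihood test in its older form was used with TMM factors, 4 group means and a Benjamini-Hochberg FDR below 0.1. SE values come from the fitted information. SP against LP is the mean of the 3 SP weeks minus LP, so that a value can rest mostly on 1 week. Single values were compared by exact 2-sided permutation tests of mean log2 CPM (prior count 2). Precision was lowest for genes of few counts: the median SE of a log2 fold change was 0.73 under 20 CPM and 0.42 between 100 and 300 CPM. It was not lowest for the 146 genes at 300 CPM or more, where it was 0.48.

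Genes named are the 7 hormones, the 10 genes with the smallest p in each direction, up to 3 of the smallest p in each of 27 lists, and genes past the FDR at a week. Others (Pou1f1, Srp9, the 5S copies, 7S RNAs, and genes without overlap at a week) were chosen after their values were seen. The members and lists were chosen with earlier results of these data known. Alternatives were DESeq2 1.42.0, other scalings, filters and isoform rules, all 54 pituitary libraries, a replicate block, Lars2 left out and each library left out. No 2 replicates of a group had the same counts (60 pairs, chi-square per degree of freedom of at least 5.96). Since summed counts credit 1 read to several isoforms, this value cannot be set against sampling noise. Some genes that the rule names are not reported here. Other tissues were not used here.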

Additional observations from a re-analysis of the deposited data

Results flagged for a closer look

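The size of the fall in Prl differed among 4, 8 and 12 weeks SP (edgeR adjusted p = 9.30e-05 over all genes), with the smaller fall at 4 weeks.

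In 2 of 95 groups of 6 libraries in which a gene reported here or a depth measure had a value above 0 in every library, 1 library stood apart by Dixon's ratio (gap over range, above its 95% critical value for 6 samples), where chance gives about 1 in 20 groups. For genes the ratio was taken on log2 CPM (prior count 2), not on the CPM given here. Cga at 8 weeks SP had a ratio of 0.632, with 1 library at 2043 CPM and the others at 1099 to 1382 CPM. Srp14 in LP had a ratio of 0.725, with 1 library at 111 CPM and the others at 10.5 to 26.1 CPM. Another 201 groups held a library at 0 counts and were not examined.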

How the results depend on the processing

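Prl passed under every alternative run, with log2 fold changes of −4.09 to −3.89 when each library was left out in turn and −4.36, −3.93, −3.73 and −3.34 as log2 ratios to Gh, Pomc, Cga and Lhb counts, an alternative chosen after seeing the data. The count of genes that passed stayed at 1 in each comparison with DESeq2's size factors, library totals, filterByExpr, Lars2 left out, an FDR of 0.05 and the replicate block. It changed for SP against LP (no filter 301; highest isoform 11; maximum isoform in each library 6; edgeR 4 form 2, with Agfg1; DESeq2 2, with Fam13b), of which 16 of the 301 were read in 12 or more libraries. It changed at 4 weeks (no filter 41, highest isoform 54, maximum isoform 50, DESeq2 40), at 8 weeks (2, 5, 4 and 2), at 12 weeks (16, 4, 4 and 4, and 2, Prl and Pkd2l2, when read in at least 18 libraries) and among weeks (no filter 386, all 54 libraries 2). Of the 301 genes that passed for SP against LP without a filter, 265 were lower and 36 higher in SP, read in a median of 4 libraries. With the 5S copies as 1 gene, chosen after seeing the data, DESeq2 gave 2, 1, 2 and 4 and the highest isoform 5, 4, 5 and 4 for SP and for 4, 8 and 12 weeks. Leaving out 1 library gave 1 to 2 genes for SP against LP and 1 to 2 at 4 weeks: Agfg1 and, at 4 weeks, Slc22a17 passed without LP replicate 2, Gatad2a without 4 weeks SP replicate 3 and Chd9 without 4 weeks SP replicate 5.

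Same-numbered libraries of different groups correlated at −0.08 to 0.20 (36 pairs, median 0.08, 10 over 0.1), and those of other numbers at a median of −0.02 (180 pairs, 8 over 0.1). For 15 of 24 libraries, their own number had the highest mean correlation of the 6 numbers over the other groups, a hint from the data that the numbers share something. Over the 4 groups, 7393 to 9456 genes were read in the libraries numbered 2 and 2558 to 3904 in those numbered 6. Those numbered 3 differed more, from 3503 to 9171. The sources used here do not say what a number marks and not every pair was over 0.1, so the fit has no block, and with the replicate block each comparison still had 1 gene (Prl −3.97). Signs of genes that did not pass turned in a few settings. Pomc (−0.02) was 0.0885 with library totals, 0.00351 with 54 libraries, 0.00567 with the block and −0.13 to 0.20 over left-out libraries. Tshb (0.29) was −0.0152 with DESeq2 (−0.016 to 2.17). Thra (0.07) was −0.24 with the highest isoform, −0.0937 with the maximum isoform and −0.0504 with the block (−0.19 to 0.34). Elovl5 (0.18) was −0.0975 and −0.17 with these isoform rules (−0.0491 to 0.99). Igfbp7 (0.02) was −0.0177 with DESeq2's size factors, −0.0445 and −0.0602 with the isoform rules, −0.0126 with DESeq2, −0.0718 with the block and −0.00746 without Lars2 (−0.15 to 0.20). Cyp2f2 (0.00) was −0.0711 and −0.10 with the isoform rules, −7.66e-05 with the block and −0.022 without Lars2 (−0.19 to 0.86). Mgp (−0.06) was 0.00124 with library totals (−0.43 to 0.25). Only left-out libraries turned Per1 (−1.13 to 0.32), Tubb5 (−0.35 to 0.36) and Vim (−1.02 to 0.29). The causes were not tested.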

Other observations

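In the later SP weeks, which enter no comparison here, Prl scaled over all 54 pituitary libraries had a median of 956 CPM at 16 weeks (214 to 1437), 1316 CPM at 20 weeks (496 to 2257), 4672 CPM at 24 weeks (3781 to 9880), 9596 CPM at 28 weeks (6017 to 16794) and 11469 CPM at 32 weeks (6224 to 14155), beside 13347 CPM in LP (7136 to 15821). On the same scale the median of Gh was 45172 CPM in LP and 65909, 57117, 55061, 72180 and 60901 CPM at 16, 20, 24, 28 and 32 weeks. The median of Pomc was 9211 CPM in LP and 15340, 12256, 14112, 11777 and 16649 CPM at the same weeks, and the ranges of both genes overlapped LP at each of them. Fam13b, at 0 to 19.8 CPM in LP, ranged from 0 to 1093 CPM at 24 weeks and from 0 to 464 CPM at 32 weeks. Of the 4088 genes tested in the early weeks, 183 had the same count as another gene in all 24 libraries, so that the table holds 3975 distinct sets of counts.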
